A study of Callithrix jacchus with 4 samples.

Results

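The genes described are 10 components of Notch signalling, namely the receptors NOTCH1, NOTCH2 and NOTCH3, the ligands DLL1 and JAG1, and the target or related genes HES1, HES5, HES6, HEY1 and HEY2. They were measured by 14 array features out of 29033 features that carry 1 gene symbol, and are 10 of 18014 genes. Features were taken where the only symbol in the platform annotation was that of a member. The set was chosen by measured values in part, since HES5 was picked because it was high on all 4 arrays. Its values are therefore given as a description, with no test.

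Substantia nigra pars compacta, the midbrain nucleus that holds dopamine neurons, was cut out by laser microdissection from 5 male common marmosets aged 3 years. 1 animal received vehicle intravenously, and 4 received 1 intravenous dose of 2.5 mg/kg MPTP, a toxin that harms dopamine neurons, and were killed after 2 or 6 h, or after 1 or 14 days. RNA was amplified in 2 rounds, and each of 4 two-colour arrays designed for human transcripts compared 1 MPTP animal, labelled with Cy5, with the 1 vehicle animal, labelled with Cy3, and dyes were not swapped. Each time is thus 1 animal, the tissue is a strip of the nucleus with all its cell types, and all 4 ratios share 1 vehicle sample.

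In Notch signalling, ligands of the Delta and Jagged families on 1 cell bind Notch receptors on its neighbour. The receptor is then cut, the last cut being made by gamma-secretase, and its intracellular domain enters the nucleus, where it joins the DNA-binding protein RBPJ and a Mastermind co-activator to switch on HES and HEY genes. These encode basic helix-loop-helix repressors that hold back neuronal differentiation. In the adult brain Notch genes are known from astrocytes, neural stem cells and vessels, with NOTCH3 typical of pericytes and smooth muscle.

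Each value is a log2 ratio, MPTP over vehicle, centred on the median of all features of an array, and a gene's value is the median over its features. The deposited table states neither its scale nor its direction. Its entries were taken as log10 ratios from their range and medians, and the direction was taken from the dyes in the labels. Had the ratio been formed the other way, every sign would turn. 4 values given in a row stand for 2 h, 6 h, 1 day and 14 days, in that order. Since each time is 1 animal, the spread between animals is unknown and no test was made, and an SD below is taken over the features of 1 gene. Among the 7411 genes with 2 or more features, the median of this SD was 0.45, 0.34, 0.27 and 0.29 from 2 h to 14 days. The SD of all gene values was 0.71, 0.57, 0.48 and 0.47 in the same order. No spot intensities were available, so signal over background is unknown. In bulk tissue, fewer cells of a type and less RNA per cell cannot be told apart.

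Against vehicle, HES5 was the only member at least 2-fold higher on all 4 arrays. NOTCH3 was at least 2-fold higher at 2 h and 6 h, and NOTCH1 at 14 days. HES6 and HEY1 were at least 2-fold lower at 2 h alone. The remaining 5 members, HES1, HEY2, NOTCH2, DLL1 and JAG1, stayed within 2-fold of vehicle on every array.

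**Figure D1:**
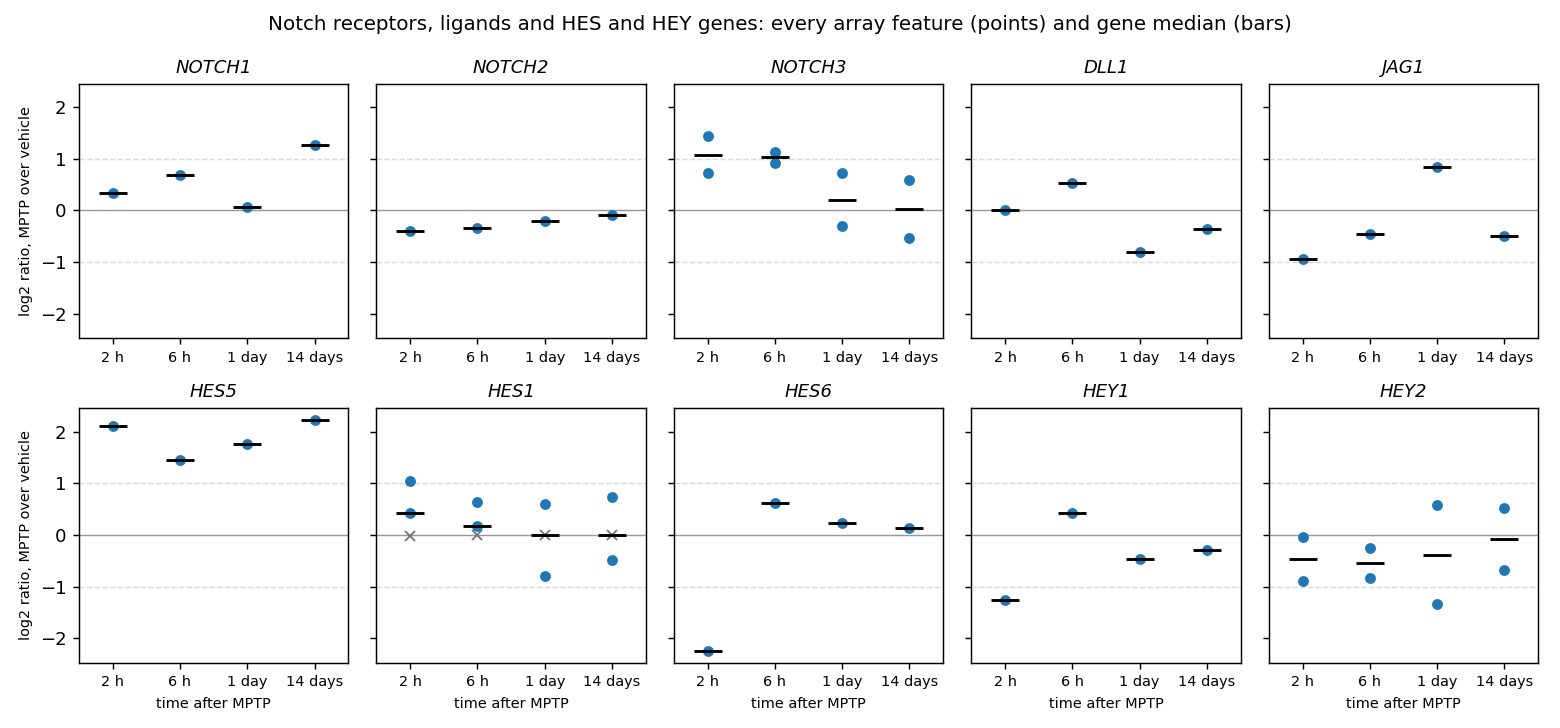
Log2 ratio of MPTP over vehicle for each array feature (points) of the 10 genes at each time, 1 animal per time, with the gene median as a black bar. Crosses mark the HES1 feature listed at 0 on all 4 arrays, and dashed lines mark 2-fold. HES5 lies between 1.46 and 2.23 throughout. Apart from the crosses, the features of HES1, HEY2 and NOTCH3 lie on opposite sides of vehicle at 1 day and 14 days. At 2 h these genes have SDs over features of 0.54, 0.61 and 0.51.

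HES5 encodes a repressor that is a classical target of Notch in neural progenitors and astrocytes. Its single feature lay at 2.11, 1.46, 1.77 and 2.23 from 2 h to 14 days, or 4.32-, 2.75-, 3.40- and 4.69-fold above vehicle. The values in the deposited table were 0.642, 0.439, 0.532 and 0.671. All 4 arrays were high, and the lowest was that at 6 h. Ordered by level, 14 days and 2 h lay 0.12 apart, 2 h and 1 day 0.35, and 1 day and 6 h 0.31. None of these steps passed the larger of the median feature SDs of its pair of arrays (0.45, 0.45 and 0.34), which is the spread between features of other genes and not the spread between animals. In order of time, HES5 at 6 h less 2 h (−0.65) and at 14 days less 1 day (0.46) did pass it. With the arrays scaled to 1 spread these differences were −0.11 and 0.30. If the deposited values were log2 ratios in place of log10, HES5 would lie between 0.44 and 0.67, and as natural logs between 0.63 and 0.97, on no array 2-fold higher.

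HES5 stood near the top of the array at every time. Of 18014 genes, 99, 197, 85 and 35 had a higher value from 2 h to 14 days. By its lowest value over the 4 arrays it ranked 2 of 18014. HES5 was picked because it was high on all 4 arrays, so these ranks restate that choice. Altogether 27 genes (0.150%) were at least 2-fold higher on all 4 arrays, and 39 (0.216%) at least 2-fold lower, a group that held 0 of the 10 members. All 27 higher genes had 1 feature. Of the 7411 genes with 2 or more features, 0 were at least 2-fold higher and 3 at least 2-fold lower on all 4 arrays. For HES5, as for those other genes with 1 feature, agreement between features could not be examined.

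**Figure D2:**
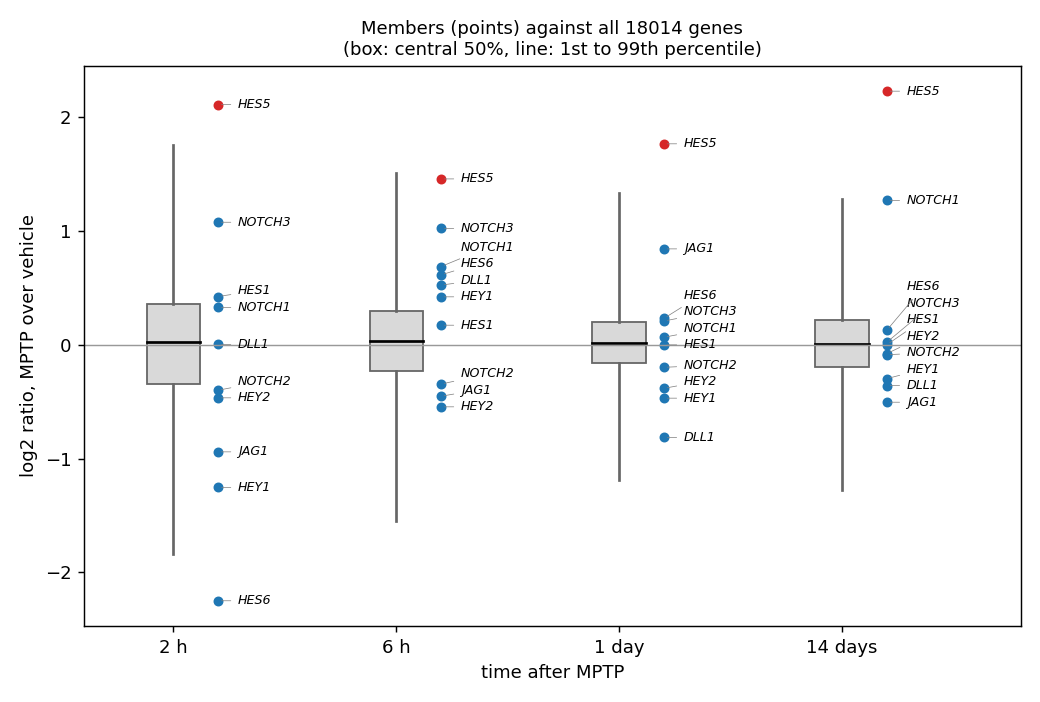
Log2 ratio of each member (points, HES5 in red) beside the distribution of all genes on the same array (box, interquartile range with the median as a line; whiskers, 1st to 99th percentile). HES5 lies above the 99th percentile, which is 1.75, 1.51, 1.33 and 1.28 from 2 h to 14 days, on every array except that at 6 h.

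The 5 genes nearest to HES5 over the 4 arrays, by the largest difference on any array, were ORC1, ECE1, MRPL20-AS1, HTR6 and ABRA. Genes with an exact 0 in any feature on any array were left out of this search. ORC1, a subunit of the origin recognition complex of DNA replication, was never more than 0.41 away, with 1.74, 1.33, 1.35 and 1.95 from 2 h to 14 days. The endothelin-converting enzyme gene ECE1 came within 0.70, the antisense transcript MRPL20-AS1 within 0.71, the serotonin receptor gene HTR6 within 0.73 and ABRA within 0.77. Each of them also had 1 feature. No HES, HEY or other listed Notch pathway gene was among them. The listed pathway genes, HES5 included, are only 73 of 18014 genes, so nothing is read from their absence.

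In the gene order of the marmoset RefSeq table (assembly calJac240_pri), the nearest measured genes on either side of HES5 are PANK4 and TNFRSF14. PANK4, of the pantothenate kinase family, lay at 0.11, 0.03, 0.38 and −0.15 from 2 h to 14 days. TNFRSF14, a receptor of the tumour necrosis factor receptor family, lay at −0.24, −0.40, −0.18 and −0.10. Neither shared the level of HES5. Over the 10 measured genes on either side, the median was 0.24, 0.24, 0.14 and 0.10 from 2 h to 14 days, with 15, 15, 15 and 13 of 20 above 0. Medians at least as high were found around 17.4%, 11.1%, 7.52% and 20.4% of the 14846 genes with 10 measured genes on each side. The neighbourhood median was thus slightly above 0. HES5 was picked for high values, so its place above most of these genes follows in part from that choice. The gene order used here held protein-coding genes only, and a regional cause was not tested. The highest neighbour was SKI, a transcriptional co-repressor, at 2.32 at 1 day, where its features differed widely (SD 3.20, 2 features). With a regional median subtracted, over genes 10 to 30 places from it on either side, HES5 lay at 1.87, 1.20, 1.66 and 2.13.

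**Figure D3:**
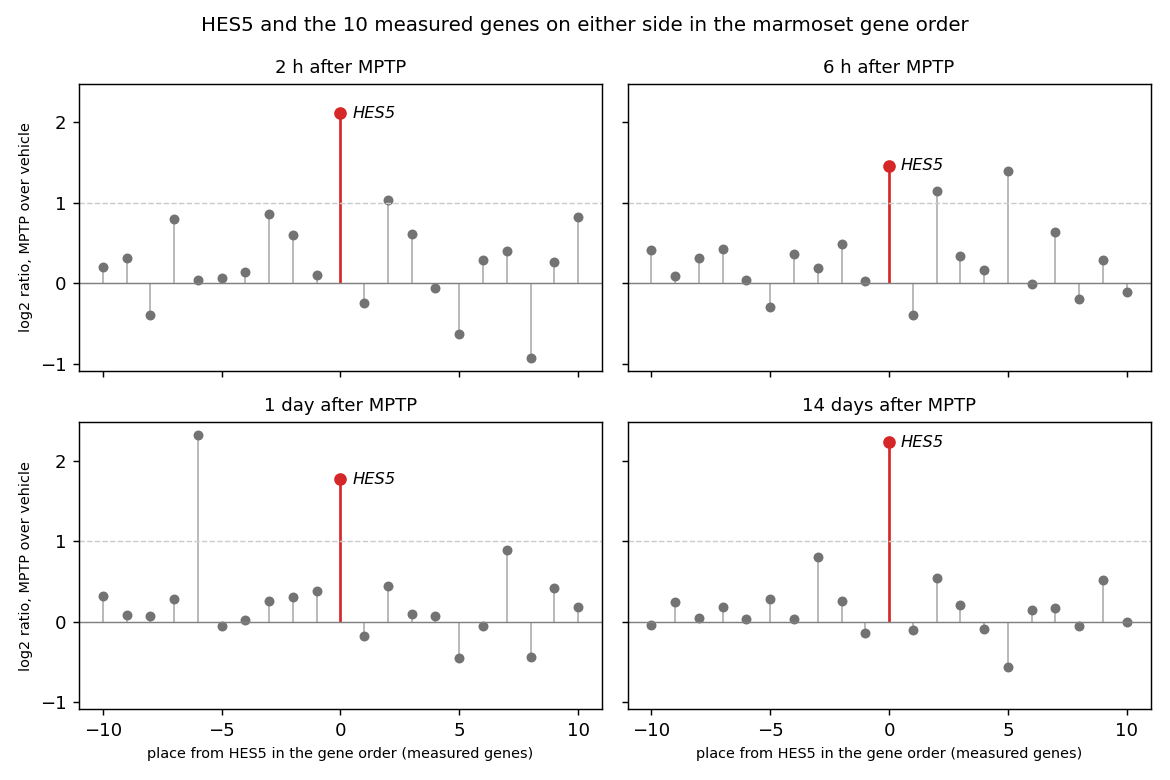
Log2 ratio of HES5 (red) and of the 10 measured genes on either side of it in the marmoset gene order (grey), 1 panel per time, with the dashed line at 2-fold higher. HES5 is the highest of the 21 genes at 2 h, 6 h and 14 days, and SKI lies above it at 1 day.

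The other HES and HEY genes did not share the level of HES5. HES1, the repressor most widely induced by Notch, had a gene value of 0.42 ± 0.54 (SD, 3 features), 0.17 ± 0.33, −0.00092 ± 0.70 and 0 ± 0.62 from 2 h to 14 days. Of its 3 features, 1 held an exact 0 for every array and gives no ratio, although it counts in these gene values and SDs. The second lay at 0.42, 0.64, −0.79 and −0.49, and the third at 1.05, 0.17, 0.61 and 0.74. These features lay on the same side of vehicle at 2 h and 6 h and on opposite sides at 1 day and 14 days. The later HES1 values thus have no settled direction, and the gene values given for 1 day and 14 days are those of the feature listed at 0. With exact zeros taken as not measured, HES1 lay at 0.70, 0.38, −0.11 and 0.11 from 2 h to 14 days. That setting also shifts the centre of each array.

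HES6 differs from its relatives in that its protein opposes HES1 and favours neuronal differentiation. Its single feature lay at −2.25, 0.61, 0.23 and 0.13 from 2 h to 14 days. At 2 h it was 4.76-fold below vehicle, with 60 of 18014 genes lower, and at the other times it was slightly above vehicle. HES5 and HES6 were thus at opposite ends of the 2 h array.

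HEY1 and HEY2 encode repressors known from the heart and from arterial vessels. HEY1, with 1 feature, lay at −1.25, 0.42, −0.47 and −0.30 from 2 h to 14 days, below vehicle except at 6 h. Scaled to 1 spread, its 2 h value was −0.89, within 2-fold. HEY2 had gene values of −0.47 ± 0.61 (SD, 2 features), −0.55 ± 0.41, −0.38 ± 1.36 and −0.08 ± 0.85 from 2 h to 14 days. The first HEY2 feature was below vehicle throughout, at −0.89, −0.84, −1.34 and −0.68. Its second feature lay at −0.04, −0.25, 0.58 and 0.52, so the features were on opposite sides of vehicle at 1 day and 14 days.

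Among the receptors, NOTCH3 was above vehicle early. It had gene values of 1.08 ± 0.51 (SD, 2 features), 1.02 ± 0.15, 0.21 ± 0.72 and 0.02 ± 0.80 from 2 h to 14 days. The first feature lay at 1.43, 1.13, 0.72 and 0.58, and the second, annotated to a sequence other than the RefSeq mRNA, at 0.72, 0.92, −0.30 and −0.54. Both were above vehicle at 2 h and 6 h, and they lay on opposite sides of it at 1 day and 14 days. Only the first passed 2-fold, so with every feature required to pass, NOTCH3 did not count at either time. With exact zeros taken as not measured, which shifts the centre of the array, NOTCH3 at 6 h was 0.996. With the arrays scaled to 1 spread it was 0.77 at 2 h and 0.98 at 6 h, and after regional subtraction 0.86 and 0.81, so its place past 2-fold rests on the processing.

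NOTCH1, the receptor best known from neural stem cells and from T-cell leukaemia, lay at 0.33, 0.69, 0.07 and 1.27 from 2 h to 14 days (1 feature). All 4 values were above vehicle, and that at 14 days was exceeded by 185 of 18014 genes. NOTCH2 lay below vehicle at every time, at −0.40, −0.35, −0.20 and −0.09 (1 feature). Its range over the arrays, 0.31, was the narrowest among the members, and 78.8% of all genes had a wider one.

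The ligands lay within 2-fold of vehicle. DLL1, a Delta-type ligand, lay at 0.0024, 0.52, −0.81 and −0.36 from 2 h to 14 days (1 feature). JAG1, a Jagged-type ligand of glia and endothelium, lay at −0.94, −0.45, 0.84 and −0.50 (1 feature). At 1 day these ligands were on opposite sides of vehicle, with 482 genes lower than DLL1 and 612 higher than JAG1. Both would pass 2-fold at 1 day if the arrays were scaled to 1 spread, at −1.12 and 1.16.

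At 2 h, 2 of 10 members were at least 2-fold higher (HES5 and NOTCH3) and 2 lower (HES6 and HEY1), against 5.47% and 7.22% of all genes. At 6 h, 2 were higher (HES5 and NOTCH3) and 0 lower, against 3.37% and 3.89%. At 1 day 1 was higher (HES5) and 0 lower, against 2.27% and 1.67%. At 14 days 2 were higher (HES5 and NOTCH1) and 0 lower, against 2.16% and 2.12%. HES5 is in each of these counts by the way it was chosen, and nothing is read from them about the members as a set. The median over the 10 members was −0.20, 0.47, 0.03 and −0.04 from 2 h to 14 days, beside 0.03, 0.03, 0.02 and 0.0095 over all genes. Without HES5 it was −0.40, 0.42, −0.00092 and −0.08, with 4, 6, 4 and 3 of 9 members above 0, beside 52.1%, 53.2%, 52.3% and 51.3% of all genes.

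In the difference between 2 arrays the shared vehicle sample cancels, so these values compare 2 MPTP animals killed at different times. From 2 h to 6 h, 2 of 10 members differed at least 2-fold, against 8.88% of all genes. HES6 was higher at 6 h by 2.86, a difference reached upward by 53 of 18014 genes, and HEY1 by 1.67, reached by 251. HES5 was lower at 6 h than at 2 h, with a difference of −0.65, and 9.04% of genes differed as much in that direction.

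From 6 h to 1 day, 2 members differed at least 2-fold, against 6.28% of all genes, and both were ligands. DLL1 was lower at 1 day, with a difference of −1.34, and JAG1 higher, with 1.30. NOTCH3 (−0.81) and HEY1 (−0.89) lay just within 2-fold. From 1 day to 14 days, 2 members differed at least 2-fold, against 4.80%, NOTCH1 with 1.20 and JAG1 with −1.35. Between 2 h and 14 days, 2 members did so, against 9.18%, HES6 with 2.38 and NOTCH3 with −1.06. HES5 differed by 0.12 between these ends of the course, and with the arrays scaled to 1 spread by 1.22.

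**Figure D4:**
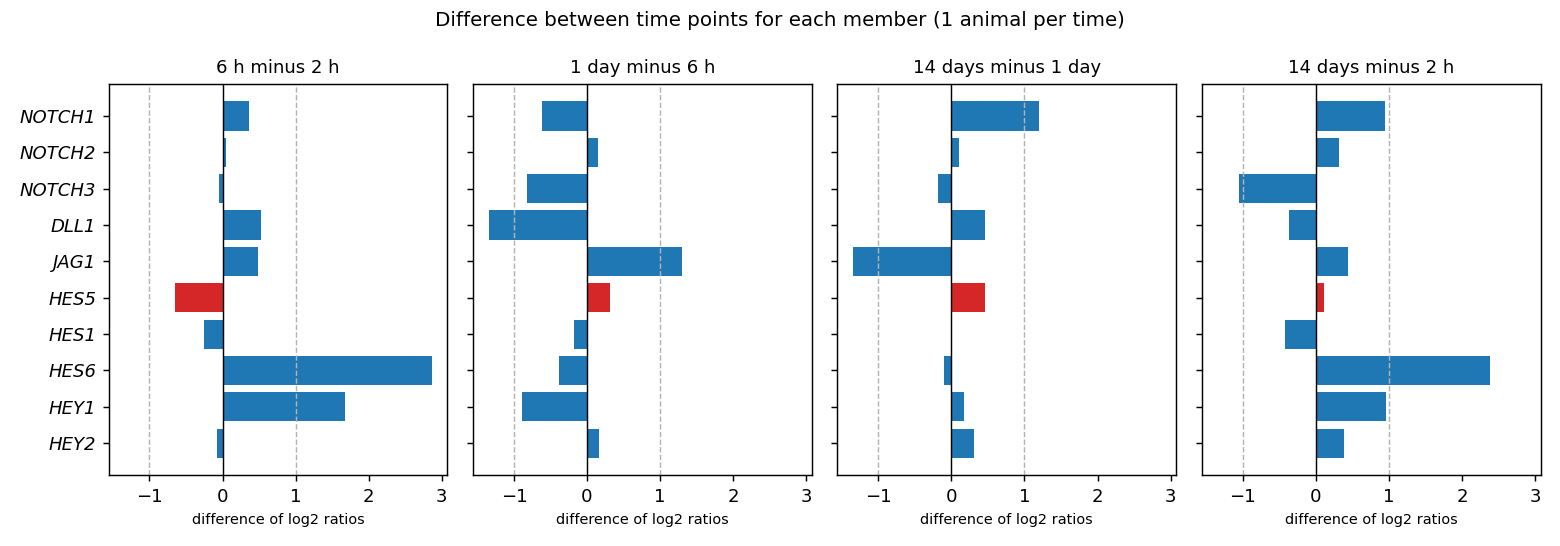
Difference of the log2 ratios of a pair of arrays for each member (HES5 in red), 1 animal per time, with dashed lines at 2-fold. The largest bars are those of HES6, at 2.86 for 6 h minus 2 h and 2.38 for 14 days minus 2 h.

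Beyond the members, 63 other Notch pathway genes were measured, which with the members make 73 of the 81 listed. The other 8 were not analysed here. Among the 63, DTX2 was listed at 0 on all 4 arrays and so gives no ratio, although it counts in the numbers below. At least 2-fold higher were 5, 3, 1 and 1 of the 63 from 2 h to 14 days, and 2, 1, 1 and 1 were at least 2-fold lower. In either direction these are 11.1%, 6.35%, 3.17% and 3.17%, beside 12.7%, 7.26%, 3.94% and 4.29% of all genes. The median of the 63 was 0.09, 0.16, 0.05 and 0.03 from 2 h to 14 days. The pathway beyond the members thus had a share of genes past 2-fold near that of the whole array.

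**Figure D5:**
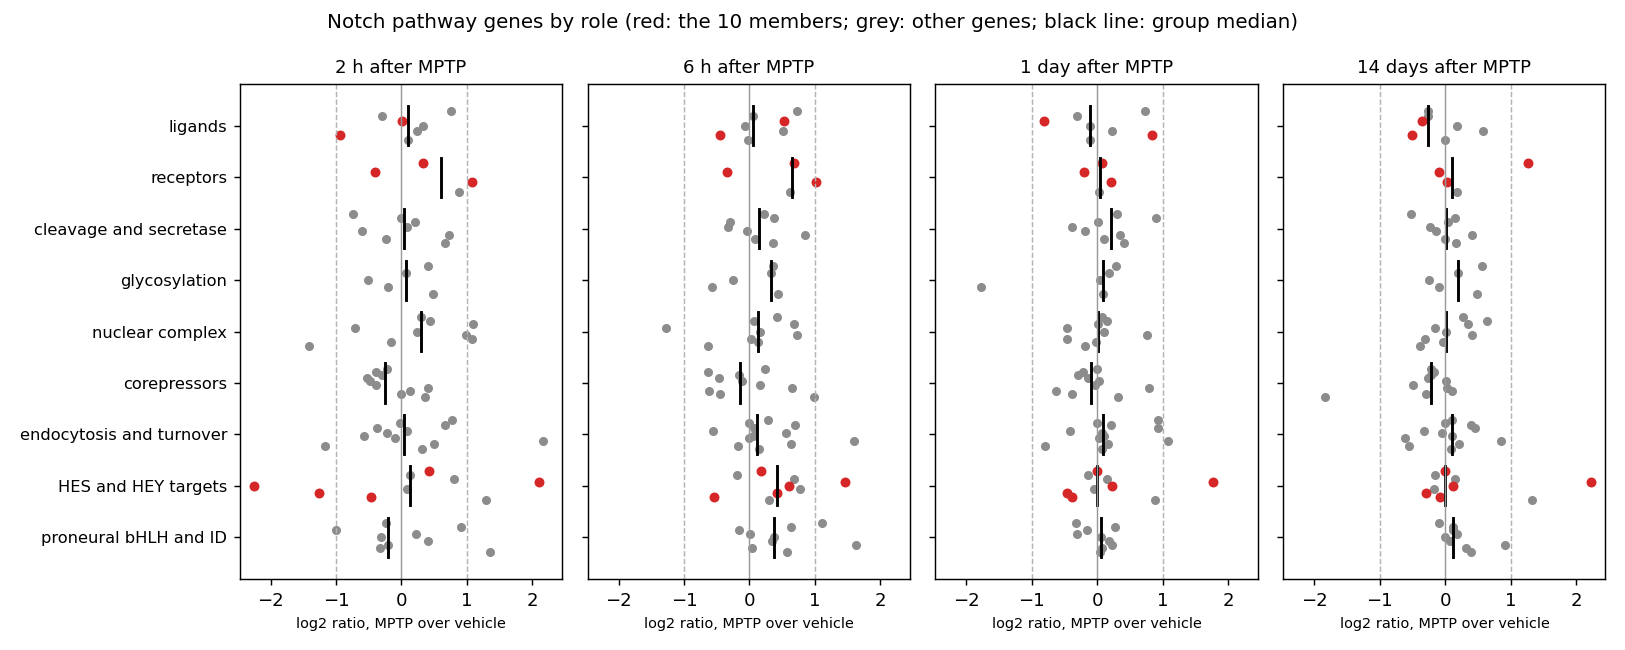
Log2 ratio of 73 measured Notch pathway genes at each time, grouped by role, with the 10 members in red, the other genes in grey and the median of each role as a black line. Dashed lines mark 2-fold. Most genes lie within 2-fold at every time, and HES5 and MIB2 reach furthest to the right at 2 h.

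Of 7 ligands, counting the members, 0 passed 2-fold on any array, beside 12.7%, 7.26%, 3.94% and 4.29% of all genes from 2 h to 14 days. DLL4, the Delta ligand of endothelium, lay at 0.24, 0.51, 0.23 and 0.58, and DLK1, a Delta-like protein that lacks the receptor-binding domain of the classical ligands, at 0.77, 0.73, 0.72 and −0.26. NOTCH4, the endothelial receptor, lay at 0.89 ± 0.49 (SD, 2 features), 0.63 ± 1.35, 0.02 ± 0.28 and 0.18 ± 0.32. It was higher at 2 h than at 1 day and 14 days. At 6 h its features lay on opposite sides of vehicle, so that value has no settled direction. Of 8 genes of receptor cleavage, 0 passed 2-fold, beside the same shares of all genes. With so few genes, nothing is read from these counts. The gamma-secretase subunits NCSTN (0.73, 0.85, 0.34 and 0.41) and PSENEN (0.67, 0.35, 0.41 and 0.16) were above vehicle at each time. APH1A (0.21, −0.30, 0.02 and 0.04), APH1B (0.08, −0.33, −0.39 and −0.23) and PSEN2 (−0.24, 0.09, 0.11 and 0.0030, 3 features) were not.

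Of 5 genes that add sugars to the receptor, only POGLUT1 passed 2-fold, at −1.77 at 1 day, where its features disagreed (SD 2.42, 2 features). The shares of all genes past 2-fold were 12.7%, 7.26%, 3.94% and 4.29% from 2 h to 14 days. With 5 genes, nothing is read from this count. LFNG, a Fringe enzyme that tunes the response to Delta and Jagged, lay at 0.41 ± 0.04 (SD, 2 features), 0.36 ± 0.09, 0.29 ± 0.44 and 0.57 ± 0.56 from 2 h to 14 days.

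RBPJ, the DNA-binding partner of the Notch intracellular domain, stayed near vehicle, at −0.16 ± 0.47 (SD, 4 features), 0.13 ± 0.88, −0.02 ± 0.43 and −0.03 ± 0.57. Its partners at 2 h went both ways. MAML3, a Mastermind co-activator, lay at 1.09, 0.03, −0.47 and −0.31. MAML2 was above vehicle throughout, at 0.995, 0.74, 0.77 and 0.42. The acetyltransferase gene KAT2A lay at 1.10 at 2 h, whereas SNW1, a nuclear co-factor and splicing protein, lay at −1.42. KAT2B, a related acetyltransferase, lay at −1.27 ± 0.32 (2 features) at 6 h. It was the only gene of the 9 in the nuclear complex past 2-fold there, beside 7.26% of all genes.

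Of 10 genes of co-repressors, TLE5, a short Groucho-family protein, was the only one past 2-fold on any array, at −1.83 at 14 days (SD 1.504, 3 features). Of all genes, 12.7%, 7.26%, 3.94% and 4.29% were past 2-fold from 2 h to 14 days. The median of this role was −0.25, −0.14, −0.09 and −0.22. Of the 10, 3, 4, 3 and 3 lay above 0, beside 52.1%, 53.2%, 52.3% and 51.3% of all genes. With 10 genes, nothing is read from these counts.

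Among 12 genes of ligand and receptor endocytosis and turnover, MIB2 stood highest. It encodes a ubiquitin ligase that promotes endocytosis of Notch ligands, and lay at 2.16, 1.59, 1.08 and 0.85 from 2 h to 14 days (1 feature). MIB2 was thus highest at 2 h and lowest at 14 days, where HES5 was highest. It lies 17 measured genes before HES5 on the same chromosome of the marmoset assembly. NUMB, an adaptor that inhibits Notch, was below vehicle on all 4 arrays, at −1.17, −0.17, −0.80 and −0.55. The genes closest to these by name did not follow them. NUMBL lay at 0.31, 0.15, 0.07 and 0.09, and MIB1 at −0.09, 0.0010, 0.02 and −0.61. The median of the 12 genes, DTX2 included, was 0.04, 0.11, 0.08 and 0.10 from 2 h to 14 days.

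HEYL, a Notch target of mural cells, lay at 1.30, 0.30, 0.88 and 1.34 from 2 h to 14 days (1 feature). It shared with HES5 the higher values at 2 h and 14 days and the lowest value at 6 h, at a lower level. HES4 (0.81, 0.68, 0.15 and 0.15) and HES7 (0.09, 0.78, −0.05 and −0.17) stayed within 2-fold. Of 9 proneural and ID genes, which HES proteins repress or which act beside them, OLIG2 of the oligodendrocyte lineage was at least 2-fold higher at 2 h (1.35), and the proneural genes NEUROG2 (1.63) and ATOH1 (1.12) at 6 h. At no time was any of the 9 at least 2-fold lower, ID2 lying at −0.998 ± 0.996 (2 features) at 2 h.

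Markers of the cells known for Notch genes are given beside these values, and their part in them was not tested. The 11 astrocyte markers had medians of −0.44, −0.20, 0.0085 and 0 from 2 h to 14 days. Of these, 9, 7, 5 and 5 lay below 0 and 2, 4, 6 and 5 above 0. Of all genes, 52.1%, 53.2%, 52.3% and 51.3% lay above 0. With so few markers, nothing is read from the marker counts given here and below. S100B (−1.60), VIM (−1.51 ± 0.61, 2 features) and GJA1 (−1.34 ± 0.48, 2 features) were at least 2-fold lower at 2 h. ALDOC lay at 0.99 at 2 h. At 1 day and 14 days VIM lay at −1.12 and −0.83 and GFAP at −0.92 and −0.84, with an SD between its features of 1.30 and 1.19. The 16 endothelial and mural markers had medians of 0.13, 0.30, 0.28 and 0.34, with 10, 13, 11 and 14 above 0. The mural markers differed among themselves, with PDGFRB, a receptor of pericytes, at 0.99, 1.80, 1.12 and 1.03, RGS5 at −0.12, −0.22, 0.15 and 0.27 and ACTA2 at −1.06, 0.12, −0.04 and 0.74. Of the endothelial markers, ENG lay at 1.29 at 2 h and TIE1 at −1.12 at 6 h and 3.85 at 14 days.

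The 10 oligodendrocyte and precursor markers had medians of 0.02, 0.14, 0.04 and 0.10, the 11 microglial markers 0.03, 0.13, 0.01 and 0.20, and the 10 general neuronal markers 0.03, −0.0016, 0.12 and −0.30. Single markers lay further out, in both directions. MBP lay at −0.92, −1.57, −1.06 and −0.78 (2 features), and OLIG2 at 1.35 at 2 h. Of the microglial markers, TYROBP lay at 2.01 and SPI1 at −1.73 at 2 h, and C1QC at 1.58 at 14 days. RBFOX3, a general neuronal marker, lay at 1.05 at 1 day. Of the neuronal classes, the 12 dopamine neuron markers had medians of 0.11, 0.22, 0.21 and 0.11. The dopamine transporter SLC6A3 was listed at 0 on all 4 arrays and gives no ratio, although it counts in these medians. The 5 GABA neuron markers had medians of −0.26, −0.82, −0.63 and −0.78. The 8 erythrocyte markers had medians of 0.73, 0.10, 0.49 and 0.81, with 7, 4, 7 and 7 above 0, beside 52.1%, 53.2%, 52.3% and 51.3% of all genes. After regional subtraction these medians were 0.38, −0.16, 0.24 and 0.28.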

How the data were processed

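The deposited table held 1 value per feature for each of 4 two-colour arrays, and all 4 columns were used. Per the labels, MPTP samples carried Cy5 and the vehicle sample Cy3. The values deposited by the authors were read as log10 ratios, since none passed 2 in size and column medians were near 0. Scanner software, background correction and normalization were not given in the sources used here. Values were centred on each array's median over 43931 features, multiplied by 3.32 (log2 of 10), and summarised as the median over a gene's features. Of the features, 29033 had 1 symbol, 97 several and 14801 none. A gene was counted at 2-fold, and dim features could not be filtered out. With 1 array per time, which limits the precision, no test was run.

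The members and gene lists were chosen with earlier results of these data known. The rule for named genes took the members, list genes at least 2-fold from vehicle (up to 4 per role and time, up to 3 per marker list) and the 5 genes nearest HES5. The text names fewer of the list and marker genes, and some further genes chosen after their values were seen. Alternatives were no centring, centring on named features, the mean over features, exact zeros as not measured, arrays scaled to 1 median absolute deviation, other log bases, a 3-fold threshold, features on their own, each array left out and the sign turned. Subtraction of a regional median was added after seeing the data. Scripts (Python 3.11.15, numpy 2.4.6, pandas 2.3.3) were tested on simulated data.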

Additional observations from a re-analysis of the deposited data

Results flagged for a closer look

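In 4 members the ratio to vehicle had opposite signs at a pair of times and differed at least 2-fold between them. Any pair of times could meet this rule, and the share of all genes that meet it was not computed. Between 2 h and 6 h alone, 8.88% of all genes differed at least 2-fold in either direction, whatever their signs. Nothing is thus read from the count about the members as a set. With 1 animal per time, none of these differences was tested. HES6 went from −2.25 at 2 h to 0.61 at 6 h, a difference of 2.86. HEY1 went from −1.25 at 2 h to 0.42 at 6 h, a difference of 1.67. JAG1 went from −0.94 at 2 h to 0.84 at 1 day, a difference of 1.78. DLL1 went from 0.52 at 6 h to −0.81 at 1 day, a difference of −1.34. Each of these genes had 1 feature, so no second feature could be set beside it.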

How the results depend on the processing

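HES5 stayed at least 2-fold higher on all 4 arrays without centring, with centring on named features, with the mean over features, with exact zeros as not measured, with scaled arrays and after subtraction of a regional median. HES5 has 1 feature, so the mean over features could not change it. The centring and zero settings only shift it slightly, its lowest value, at 6 h, then lying between 1.43 and 1.46. Leaving out an array cannot take HES5 out of the count. The regional medians subtracted were small beside the values of HES5, and scaling multiplies all values of an array by 1 factor. HES5 was also picked because it was high on all 4 arrays. Nothing is thus read from these settings about the stability of HES5. At 3-fold, with values read as log2 or natural logs, or with the sign turned, 0 members were higher on all 4 arrays. With either other log base, 0 members and 0 listed pathway genes were at least 2-fold from vehicle at any time. With arrays scaled to 1 spread, the members past 2-fold were 2 at 2 h, 1 at 6 h and 3 at 1 day (against 4, 2 and 1), and the pathway genes 4 at 2 h and 12 at 1 day (against 11 and 3). At 3-fold, they were 2, 0 and 1 members at 2 h, 6 h and 14 days, and 3, 2 and 2 pathway genes at those times (against 11, 6 and 4). At 6 h, 1 member was left with zeros as not measured, with every feature required to pass, and after regional subtraction. Of 40 member values, 6 moved by more than the feature spread with scaled arrays and 1 after regional subtraction. No paired analysis was possible because each time has 1 array. Depth has no counterpart here, and signal over background is unknown.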
